A study of Mus musculus with 8 samples.

Results

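Long intergenic noncoding RNAs (lincRNAs) were followed in murine keratinocytes (KCs), the epithelial cells of the epidermis, at 2 time points of culture. The annotation in the deposited gene tables holds 5002 lincRNA genes outside chromosomes X and Y among 41457 genes listed. The 162 lincRNAs described here were chosen by their total exon reads, at least 100 summed over all 8 samples. Another 1555 had between 1 and 98 reads, and 3285 had none. The rule used the reads of both time points together, so that a lincRNA that was high at a single time point could reach the sum through it. At the edge of the rule, 1500015L24Rik, 4930558J18Rik and Gm26581 had 101 summed reads each, and 4632411P08Rik, B230208H11Rik and D5Ertd605e had 98 each and were left out.

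As background, lincRNAs are transcripts without an evident protein that arise between coding genes, are mostly made by RNA polymerase II and often carry a cap, introns and a poly(A) tail. Many are present at a low level and are restricted to few cell types. Some act as scaffolds in the nucleus, as Malat1 does in nuclear speckles and Neat1 in paraspeckles. Others bind proteins or miRNAs in the cytoplasm, are precursors of miRNAs or small nucleolar RNAs, or matter through their transcription next to a coding gene. For most lincRNAs with predicted-gene names no role is known.

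All KCs came from tails of adult wildtype C57BL/6 mice, carried no transgene and received no agent. They were kept in serum-free KC medium with low calcium, for 1 week (4 samples) or 3 weeks (4 samples). The study asked with this comparison how the RNA of KCs changed when culture was prolonged. According to its text, KCs of shared batches were taken at both times, but the labels do not say which batch or animals gave which sample. The samples were therefore compared unpaired, and p-values measure only the spread between these samples. The deposited table of each sample also carries a number, whose meaning the labels do not give. The 1 week samples carry 46, 47, 49 and 90, and the 3 weeks samples carry 46, 49, 57 and 90, in the order of their replicates.

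Between 13896807 and 20026084 reads per sample were counted on exons, and 81.6 to 84.7% of them mapped to a single place. The libraries were made from poly(A) RNA, so that transcripts without a poly(A) tail may be counted too low. How this bears on the levels of Malat1, Neat1 and Bc1, given below, was not tested. The KC label was matched by its markers, with a summed level of 14400 to 17300 RPKM at 1 week and 9740 to 10800 RPKM at 3 weeks over 10 markers such as Krt5 and Krt14. RPKM is the number of reads after scaling to exon length (in kilobases) and to sequencing depth. Markers of fibroblasts, melanocytes and endothelial cells summed to at most 21 RPKM in any sample. Smooth muscle markers, mostly Cnn1, summed to 1.08 to 3.08 RPKM at 1 week and 11.8 to 31.2 RPKM at 3 weeks. The immune list reached 229 to 489 RPKM, nearly all of it from Epcam, an adhesion molecule that epithelial cells also make, and Cd207 of Langerhans cells was at 0. Merkel cell markers stayed at or under 0.529 RPKM. The part of other cells in the values of lincRNAs was not tested. In bulk samples, fewer cells of a type and less RNA per cell cannot be told apart.

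The 162 lincRNAs took between 0.231 and 0.415% of the exon reads at 1 week and between 0.326 and 0.448% at 3 weeks, and these ranges overlapped. Their reads were unevenly spread. Of 437081 reads in all, the top 5 lincRNAs took 61.4% and a single gene, Gm26825, took 25.9%. In total, 131 of the 162 had under 1000 summed reads. The median lincRNA had 270 summed reads, an exon length of 2368 bases and a level of 1.07 RPKM. The median over all 12398 genes with at least 100 reads was 3370 reads, 4359 bases and 5.19 RPKM. A mean level of at least 1 RPKM was reached by 85 lincRNAs, and of at least 10 RPKM by 15. By symbol, 79 are predicted genes (Gm), 47 are RIKEN clones, 14 carry the name of a genomic clone and 22 another name.

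Between 1 and 3 weeks, 48 of the 162 lincRNAs changed, 31 to a higher and 17 to a lower level. These calls rest on edgeR's quasi-likelihood test on total exon reads, with an adjusted p-value under 0.05 over all 12398 tested genes. Over all tested genes 33.2% were called, 15.9% higher and 17.2% lower. Among lincRNAs the shares were 29.6%, 19.1% and 10.5%, in the same order. Of the called lincRNAs, 38 differed at least 2-fold (24 higher and 14 lower), which is 23.5% of the 162 beside 15.4% of all tested genes. These 2-fold shares were not matched for depth, and the median was 270 summed reads for lincRNAs and 3370 for all tested genes. The median log2 fold change was 0.23 over the lincRNAs and 0.03 over all tested genes. Another 22 lincRNAs had an unadjusted p under 0.05 and were not called. In 8 fits that omitted a sample each, 33 of the 48 calls always stayed and 15 were lost at least once, between 3 without replicate 4 of 3 weeks and 13 without replicate 1 of 1 week. Within the 6 samples of the 3 numbers found at both times, 44 lincRNAs were called without a block (28 higher and 16 lower). With the number as a block, 36 were called (20 higher and 16 lower). Of all 12398 tested genes, 3818 and 3031 were called, in the same order. Under 1000 summed reads, where most lincRNAs lie, 27.5% of lincRNAs were called beside 31.6% of all tested genes of that depth.

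**Figure D1:**
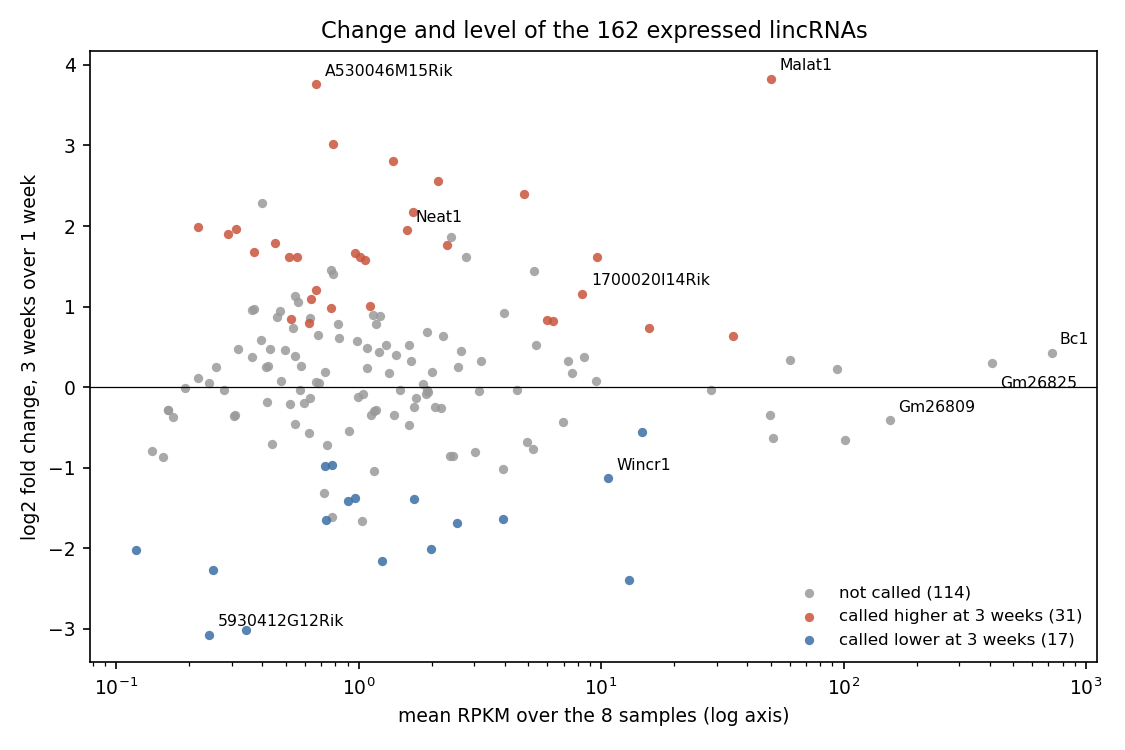
Change of 162 expressed lincRNAs between 1 and 3 weeks of culture. Each point is a lincRNA, placed by its mean RPKM over 8 samples (log axis) and by its log2 fold change, 3 weeks over 1 week; colours mark the 31 called higher, the 17 called lower and the 114 not called. Calls occur from below 1 RPKM up to Malat1 at a mean of 50.4 RPKM, and none of the 5 lincRNAs of highest level was called.

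The split between rises and falls depended on the scale. RPKM values carry no correction for library composition. On log2(RPKM + 0.1), a scale that understates changes of low genes, limma called 53 lincRNAs, 27 higher and 26 lower, beside 35.3%, 10.4% and 24.9% of all tested genes in the same order. Higher calls therefore made up 50.9% of called lincRNAs on the RPKM scale and 64.6% on the total reads. The RPKM scale lowered the median of all tested genes to -0.16 and that of the lincRNAs to 0. RPKM values of the 1 week and the 3 weeks samples did not overlap for 53 lincRNAs, 28 of them higher and 25 lower at 3 weeks. The shares over all tested genes were 37.3%, with 10.8% higher and 26.5% lower. Of the 48 lincRNAs called on reads, 41 did not overlap in RPKM.

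Malat1, the abundant RNA of nuclear speckles, had the largest fitted rise with all 8 samples. It lies on chr19:5795690-5802672 (GRCm38, minus strand) and measured 5.01, 7.70, 7.45 and 11.1 RPKM in the 1 week samples. At 3 weeks it measured 47.5, 36.3, 242 and 46.5 RPKM. Every 3 weeks sample lay above every 1 week sample, and replicate 3 of the 3 weeks samples stood apart at 242 RPKM. The fitted change was 14.2-fold (log2 fold change 3.83 ± 0.72 (SE), adjusted p = 0.00415). In the 8 fits that omitted a sample each, the value lay between 2.57 and 4.11 on the log2 scale and the call was kept, with the lowest value, 2.57 (adjusted p = 0.00069), without replicate 3 of 3 weeks. By the ratio of mean RPKM the rise was 11.9-fold, beside 12.3-fold for A530046M15Rik, which is described below. DESeq2 gave Malat1 no adjusted p. Unique reads, those mapped to a single place, gave 3.93 on the log2 scale.

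Neat1, on which paraspeckles are built, lies next to Malat1 on the same strand at chr19:5824708-5845478. Its level was 0.511, 0.514, 0.664 and 1.11 RPKM at 1 week and 0.966, 1.09, 1.23 and 6.57 RPKM at 3 weeks. The groups overlapped, and the highest value came from replicate 4 at 3 weeks. Its log2 fold change was 1.95 ± 0.64 (SE, adjusted p = 0.0433). The call was lost without any of the 4 samples of 1 week and without replicate 4 of 3 weeks, where the log2 fold change was 0.84 and the adjusted p was 0.0526. On the RPKM scale the adjusted p was 0.119. Without both samples of number 90 the log2 fold change was 1.11 (adjusted p = 0.00587). Among proteins of paraspeckles, 0 of 23 tested genes were higher and 9 were lower in the same edgeR fit (median log2 fold change -0.26), beside 15.9% higher and 17.2% lower of all tested genes. The RNA-binding proteins Sfpq (-0.85, adjusted p = 0.0058) and Pspc1 (-0.85, adjusted p = 0.00364), on the log2 scale, and Rbm14 were among those that fell.

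A window of 300 bases around the start of Malat1, from 250 bases before to 50 bases after it, is shown because of the size of its fitted rise. It spans chr19:5802623-5802922 on the minus strand (RefSeq, GRCm38.p6) and holds none of the 6 motifs described below, so that no base is in capitals.
Malat1: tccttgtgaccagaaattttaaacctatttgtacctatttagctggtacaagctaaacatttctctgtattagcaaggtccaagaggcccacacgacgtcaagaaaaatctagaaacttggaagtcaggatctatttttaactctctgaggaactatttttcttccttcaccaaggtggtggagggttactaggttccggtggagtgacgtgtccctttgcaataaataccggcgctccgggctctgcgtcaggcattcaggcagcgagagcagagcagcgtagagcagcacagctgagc

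A pair of lincRNAs that act in the cytoplasm rose moderately and with little spread. 1700020I14Rik, known as Cyrano, pairs with the miRNA miR-7 and directs its decay. It was at 5.70, 4.97, 6.18 and 5.58 RPKM at 1 week and at 12.0, 11.6, 10.8 and 10.1 RPKM at 3 weeks. The groups were well separated, with a log2 fold change of 1.16 ± 0.12 (SE, adjusted p = 0.0004). Oip5, a centromere protein gene whose body ends 2.01 kb away on the other strand, went the opposite way, from 3.50 ± 0.784 to 0.331 ± 0.109 RPKM (SD, n = 4 each; log2 fold change -3.21, adjusted p = 0.000383).

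2900097C17Rik, known as Norad, binds Pumilio proteins and is one of the more abundant lincRNAs of many cells. It stood at 24.8, 26.1, 33.5 and 32.5 RPKM at 1 week and at 40.8, 43.2, 34.8 and 43.8 RPKM at 3 weeks. The lowest 3 weeks sample lay just above the highest 1 week sample, and the log2 fold change was 0.64 ± 0.13 (SE, adjusted p = 0.00563). Only 58.0% of its reads were unique. A stretch of 2537 bases is shared, at 99.2% identity, with Gm7292 on another chromosome, a lincRNA without any unique read that was not called (0.32 on the log2 scale, adjusted p = 0.15). The change of Norad on unique reads alone was 0.63 (adjusted p = 0.00689).

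Gm14005, known as Morrbid, represses the neighbouring proapoptotic gene Bcl2l11 (Bim) in myeloid cells. Its level was 0.581, 0.310, 0.924 and 0.515 RPKM at 1 week and 1.90, 1.67, 1.63 and 0.920 RPKM at 3 weeks. The lowest 3 weeks sample fell just below the highest 1 week sample, and its log2 fold change was 1.58 ± 0.37 (SE, adjusted p = 0.0108). Bcl2l11, 15.8 kb away, was higher as well (1.13 on the log2 scale, adjusted p = 0.00397).

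The other 10 lincRNAs on a list of lincRNAs with a known role were not called by edgeR. The hosts of small nucleolar RNAs Snhg6, Snhg12 and Snhg20 had log2 fold changes of -0.77 (adjusted p = 0.0788), -1.01 (adjusted p = 0.0765) and -0.70 (adjusted p = 0.273). A list of hosts of small RNAs, whatever their biotype, also held Rmrp, the RNA component of RNase MRP, which is annotated as a ribozyme and is not a host. Of the 14 tested genes of this list, 0 were higher and 2 were lower, Snhg8 and Rmrp (median -0.58), beside the same 15.9% and 17.2% of all tested genes. Ptgs2os2, known as lincRNA-Cox2, gave -0.85 on the log2 scale (adjusted p = 0.0965), and Ptgs2, its neighbour and a prostaglandin synthase, gave -0.93 (adjusted p = 0.0976). Other tools called some of them. limma on log2(RPKM + 0.1) placed Snhg6 (-0.88, adjusted p = 0.0294) and Ptgs2os2 (-1.03, adjusted p = 0.0418) lower, and the groups of both did not overlap in RPKM. DESeq2 called Snhg12 lower (adjusted p = 0.0392) and Lncenc1 higher (1.45, adjusted p = 0.0426).

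Pvt1, the neighbour of Myc, was at -0.29 on the log2 scale (adjusted p = 0.52), while Myc itself fell (-1.05, adjusted p = 0.0133). Trp53cor1, known as lincRNA-p21, had 130 reads in all, of which 26.9% were unique. They were spread widely, with 20, 41, 1 and 10 reads at 1 week and 24, 7, 6 and 21 reads at 3 weeks. Its value was therefore not firm (0.05 ± 0.74 (SE) on the log2 scale, adjusted p = 0.971). Its neighbour Cdkn1a, the p21 cell cycle inhibitor, rose by 0.87 on the log2 scale (adjusted p = 0.00214). Dubr, Bvht and Mirt1, described in myoblasts and in heart, had log2 fold changes of -0.34, 0.19 and 0.33, with adjusted p-values of 0.28, 0.615 and 0.374.

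Lncenc1, known from embryonic stem cells, turned on the samples of number 90. It was at 3.10, 4.4, 2.76 and 2.15 RPKM at 1 week and at 10.8, 10.3, 8.0 and 0.763 RPKM at 3 weeks. A total of 3 samples at 3 weeks were above all 1 week samples and replicate 4 was below all of them. With all samples the log2 fold change was 1.44 ± 0.63 (SE, adjusted p = 0.109), and without both samples of number 90 it was 1.65 (adjusted p = 0.00235).

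Among called lincRNAs with a mean of at least 1 RPKM and no overlap between the groups, those next to Malat1 in the size of the rise had no known role. Gm6634 (chr3:70772379-70807291, minus strand), 744 kb from the nearest coding gene, measured 0.437, 0.431, 0.541 and 0.126 RPKM at 1 week and 2.77, 3.10, 2.73 and 0.943 RPKM at 3 weeks. Its lowest value at both times came from replicate 4. The log2 fold change was 2.81 ± 0.50 (SE, adjusted p = 0.00332).

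4833412C05Rik measured 1.17, 0.905, 0.449 and 0.163 RPKM at 1 week and 4.35, 5.36, 3.45 and 1.17 RPKM at 3 weeks (log2 fold change 2.56 ± 0.61 (SE), adjusted p = 0.0123). Gm37565 measured 2.14, 2.57, 0.993 and 0.924 RPKM and then 11.4, 9.42, 7.69 and 3.19 RPKM (2.40 ± 0.48, adjusted p = 0.00573). In both, as in Gm6634, replicate 4 was the lowest sample at each time, and the lincRNA rose 5.34-fold and 4.78-fold by the means of RPKM.

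Gm20300 (chr10:30603195-30606634, minus strand) rose with a narrow spread. It measured 0.626, 0.522, 0.911 and 0.626 RPKM at 1 week and 2.92, 2.32, 2.76 and 2.79 RPKM at 3 weeks (log2 fold change 2.18 ± 0.22 (SE), adjusted p = 0.000379). It begins 1.51 kb past the end of Hint3 on the same strand, and Hint3 was not called (0.21 on the log2 scale, adjusted p = 0.48).

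AC125351.1 lies 0.958 kb past the end of the kinase gene Map3k9 on its strand. It measured 0.921, 0.961, 1.63 and 1.05 RPKM at 1 week and 5.02, 3.75, 1.73 and 3.43 RPKM at 3 weeks (log2 fold change 1.76 ± 0.32 (SE), adjusted p = 0.00348). Replicate 3 was near the 1 week samples. Map3k9 itself gave 0.58 on the log2 scale (adjusted p = 0.106).

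2010300F17Rik, inside the body of the adaptor gene Skap1 on the opposite strand, measured 4.79, 6.36, 6.08 and 3.48 RPKM at 1 week and 17.2, 17.7, 13 and 8.68 RPKM at 3 weeks (log2 fold change 1.62 ± 0.27 (SE), adjusted p = 0.00228). Only 3.23% of its reads were unique, and with unique reads it was also called.

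A pair of rises of similar size lay below 1 RPKM and are named after their values were seen. A530046M15Rik, 77.2 kb from Gli3, a transcription factor of Hedgehog signalling, was at 0.0342, 0.158, 0.136 and 0.0737 RPKM at 1 week. It reached 0.942, 1.86, 1.62 and 0.531 RPKM at 3 weeks (log2 fold change 3.76 ± 0.57 (SE), adjusted p = 0.00165). Gm40987 rose by 3.02 ± 0.57 on the log2 scale (SE, adjusted p = 0.00439). Their levels at 1 week rested on few reads, since A530046M15Rik had 138 reads and Gm40987 had 177 reads over the 8 samples. Most of these reads came from 3 weeks, and both lincRNAs met the rule through that time point. For both, the lowest of the 3 weeks samples was above the highest of the 1 week samples.

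**Figure D2:**
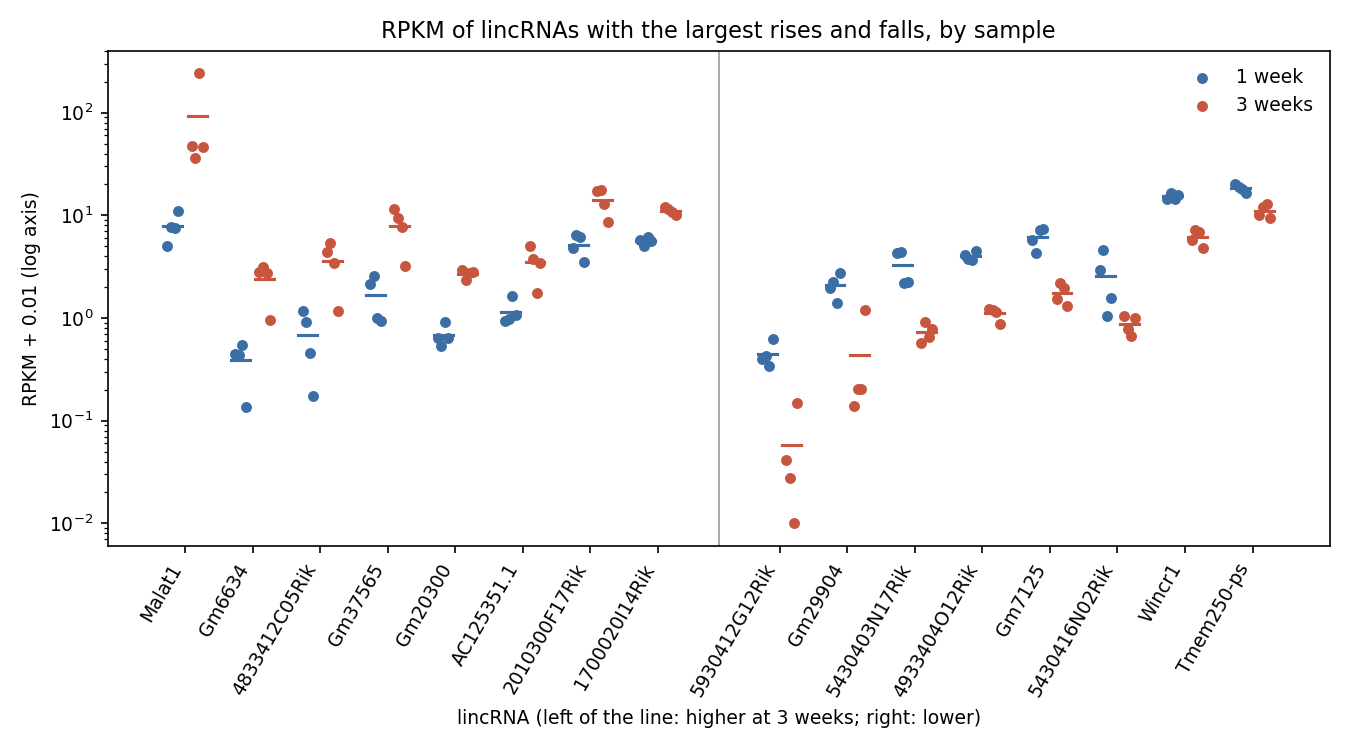
RPKM + 0.01 (log axis) in every sample of the lincRNAs with the 8 largest rises (left of the line) and the 8 largest falls (right) under the rule for named genes. Points are samples of 1 week and 3 weeks, 4 each, and bars mark group means. Malat1 has a 3 weeks sample at 242 RPKM above the rest, and the 3 weeks sample of 5930412G12Rik without a read lies lowest.

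The largest falls lay at low levels. 5930412G12Rik (chr5:128579106-128600693, minus strand) was at 0.387, 0.415, 0.328 and 0.618 RPKM at 1 week and at 0.0316, 0.0179, 0 and 0.14 RPKM at 3 weeks. The sample at 0 had no read, which allows up to 3 reads or 0.0538 RPKM. 5930412G12Rik had 117 summed reads, most of them from 1 week, and met the rule through that time point. The log2 fold change was -3.07 ± 0.69 (SE, adjusted p = 0.00938) and was -4.36 (adjusted p = 0.00123) without replicate 4 of 3 weeks. It begins 0.151 kb from Fzd10, a receptor of Wnt ligands, on the opposite strand, and Fzd10 fell from 1.54 ± 0.513 to 0.486 ± 0.149 RPKM (SD, n = 4 each; -1.48 on the log2 scale, adjusted p = 0.0128).

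4930558J18Rik, at the edge of the rule, had 27, 28, 17 and 20 reads at 1 week and 3, 2, 2 and 2 reads at 3 weeks. The log2 fold change was -3.01 ± 0.32 (SE, adjusted p = 0.000423). This lincRNA met the rule mostly through the 1 week samples, which held 92 of its 101 reads. Its divergent neighbour 1700066M21Rik, 0.076 kb away, fell by 1.00 on the log2 scale (adjusted p = 0.0075). At the same edge, 1500015L24Rik had 7, 8, 6 and 7 reads at 1 week and 16, 18, 23 and 16 reads at 3 weeks (1.66 on the log2 scale, adjusted p = 0.00425). It met the rule mostly through 3 weeks, with 73 of its 101 reads. Anxa1, an annexin 14.3 kb from it, rose by 1.30 on the log2 scale (adjusted p = 0.00423). Gm26581 had 71 reads at 1 week and 30 at 3 weeks and was not called (-0.86, adjusted p = 0.3).

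Among falls above 1 RPKM, 4933404O12Rik (chr5:136919146-136937112, plus strand) varied little within each group. It measured 4.07, 3.78, 3.70 and 4.44 RPKM at 1 week and 1.21, 1.19, 1.13 and 0.860 RPKM at 3 weeks (log2 fold change -1.69 ± 0.17 (SE), adjusted p = 0.000373). Ift22, a gene of ciliary transport 3.74 kb before it on the same strand, rose by 0.61 on the log2 scale (adjusted p = 0.017).

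5430403N17Rik measured 4.26, 4.37, 2.16 and 2.24 RPKM at 1 week and 0.567, 0.906, 0.644 and 0.773 RPKM at 3 weeks (log2 fold change -2.01 ± 0.31 (SE), adjusted p = 0.00176). Its nearest coding gene, Cldn23, which encodes a tight junction claudin, rose by 1.73 on the log2 scale (adjusted p = 0.00132) at a distance of 37.5 kb. Gm7125 measured 5.68, 4.29, 7.23 and 7.41 RPKM and then 1.53, 2.18, 1.96 and 1.29 RPKM (-1.64 ± 0.27, adjusted p = 0.00221). The groups of both lincRNAs lay clearly apart.

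Wincr1, named for its induction by Wnt signalling, was the most abundant lincRNA among the 8 largest falls of this rule after Tmem250-ps. It lies on chr4:89050308-89084614 (plus strand). Its level was 14.5, 16.5, 14.5 and 15.6 RPKM at 1 week and 5.78, 7.20, 6.88 and 4.83 RPKM at 3 weeks (log2 fold change -1.13 ± 0.19 (SE), adjusted p = 0.00228). The 1 week samples varied little, and every 3 weeks sample lay far below them.

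A further 3 falls were smaller or less stable. Gm29904 measured 1.97, 2.21, 1.39 and 2.72 RPKM at 1 week and 0.129, 0.195, 0.195 and 1.20 RPKM at 3 weeks (log2 fold change -2.16 ± 0.63 (SE), adjusted p = 0.0287), and the call was lost without replicate 1, 2 or 4 of 1 week or replicate 1, 2 or 3 of 3 weeks (adjusted p up to 0.0755). Without replicate 4 of 3 weeks its log2 fold change was -3.38 (adjusted p = 0.000673). 5430416N02Rik fell by 1.39 ± 0.43 on the log2 scale (SE, adjusted p = 0.0348), which was lost without replicate 1 or 2 of 1 week or replicate 1, 2 or 3 of 3 weeks (adjusted p up to 0.0918) and was not called on unique reads. Tmem250-ps, listed as a lincRNA and named as a pseudogene, had one of -0.55 ± 0.16 (SE, adjusted p = 0.0309) and means of 18.3 and 11.1 RPKM, and its call was lost without any sample of 1 week and without replicate 1 or 2 of 3 weeks (adjusted p up to 0.0852).

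Windows around the starts of some lincRNAs that rose or fell are shown to compare their sequence, from 250 bases before to 50 bases after the RefSeq start (GRCm38.p6). Capitals mark any of the 6 motifs described in the next paragraph, on either strand. A530046M15Rik (chr13:15806993-15807292, plus strand) and Gm6634 (chr3:70807242-70807541, minus strand) rose, and Wincr1 (chr4:89050057-89050356, plus strand) and 4933404O12Rik (chr5:136918896-136919195, plus strand) fell.
A530046M15Rik: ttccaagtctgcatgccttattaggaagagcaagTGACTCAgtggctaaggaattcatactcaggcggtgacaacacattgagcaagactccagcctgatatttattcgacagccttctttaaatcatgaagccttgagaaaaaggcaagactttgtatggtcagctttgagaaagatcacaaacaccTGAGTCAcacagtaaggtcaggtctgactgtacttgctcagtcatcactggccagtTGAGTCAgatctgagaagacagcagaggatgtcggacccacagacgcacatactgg
Gm6634: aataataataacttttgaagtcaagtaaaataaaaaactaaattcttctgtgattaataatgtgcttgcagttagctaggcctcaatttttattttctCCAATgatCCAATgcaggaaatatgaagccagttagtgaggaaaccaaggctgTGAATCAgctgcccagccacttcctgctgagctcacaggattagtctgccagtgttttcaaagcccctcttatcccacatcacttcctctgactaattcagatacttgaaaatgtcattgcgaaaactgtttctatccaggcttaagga
Wincr1: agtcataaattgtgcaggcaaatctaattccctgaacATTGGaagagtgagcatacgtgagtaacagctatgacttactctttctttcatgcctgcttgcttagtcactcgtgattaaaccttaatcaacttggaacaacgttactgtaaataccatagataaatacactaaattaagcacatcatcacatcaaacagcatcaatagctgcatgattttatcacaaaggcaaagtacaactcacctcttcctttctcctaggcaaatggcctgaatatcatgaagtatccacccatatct
4933404O12Rik: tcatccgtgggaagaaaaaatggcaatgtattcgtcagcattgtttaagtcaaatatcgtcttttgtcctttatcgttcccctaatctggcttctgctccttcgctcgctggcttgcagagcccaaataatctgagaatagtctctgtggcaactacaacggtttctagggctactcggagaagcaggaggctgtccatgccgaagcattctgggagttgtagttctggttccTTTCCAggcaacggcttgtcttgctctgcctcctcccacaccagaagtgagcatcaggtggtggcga

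Of the 162 lincRNAs, 83 had such a window, and in 74 the RefSeq start lay within 1000 bases of the deposited start. Both strands were searched for the TATA box TATAAA, for CCAAT, the NF-Y motif, and for the E-box CACGTG. Further motifs were TGANTCA, which AP-1 binds, TGGAAA, the core of NFAT sites, and GGAATG, which TEAD factors bind. Occurrences that overlapped were all counted. TGANTCA was present in 8 of 74 windows (10.8%) beside 7.81% of 32851 windows over all genes. The window of A530046M15Rik holds 3 of them and that of Gm6634 holds 1. CCAAT was present in 41.9% of lincRNA windows beside 37.4% of all, TGGAAA in 17.6% beside 21.4%, GGAATG in 17.6% beside 14.7%, CACGTG in 6.76% beside 7.15% and TATAAA in 6.76% beside 13.6%. Split into the 14 windows of lincRNAs called higher, the 11 called lower and the 49 not called, TGANTCA was in 4, 0 and 4, CCAAT in 4, 6 and 21, and TGGAAA in 2, 4 and 7. In the same order GGAATG was in 3, 0 and 10, CACGTG in 1, 0 and 4 and TATAAA in 2, 0 and 3, and these small counts were not tested. The median GC content was 53.4% beside 52.7%, with 11 CpG per window beside 7. These are matches of letters only.

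The lincRNAs of highest level differed from those that changed. Bc1, a short transcript of RNA polymerase III known as a repressor of translation in neurons, led by mean RPKM. Its whole sequence (chr7:144914470-144914637, plus strand, GRCm38) is shown because it is the shortest of the 5 lincRNAs of highest level, with a run of 23 A inside the transcript, in capitals.
Bc1: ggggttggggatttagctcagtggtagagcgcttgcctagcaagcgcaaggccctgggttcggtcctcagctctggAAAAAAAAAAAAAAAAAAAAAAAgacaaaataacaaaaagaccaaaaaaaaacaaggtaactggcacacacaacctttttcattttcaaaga

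Bc1 measured 1040, 569, 551 and 514 RPKM at 1 week and 497, 634, 1590 and 375 RPKM at 3 weeks. A single sample was high at each time, and the groups overlapped widely (log2 fold change 0.43 ± 0.49 (SE), adjusted p = 0.535). The sign changed when replicate 3 of the 3 weeks samples was left out (-0.33 on the log2 scale). An exon length of 168 bases makes its RPKM large for its 16761 reads.

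Gm26825 (chr5:5781530-5783636, plus strand) had the most reads of all lincRNAs. It was at 504, 256, 802 and 1.51 RPKM at 1 week and at 641, 675, 397 and 1.21 RPKM at 3 weeks, and replicate 4 was near absent at both times. Only 14.2% of its reads were unique. Unique reads had the same pattern, with 2827, 1348, 3508 and 2 reads at 1 week and 3455, 3194, 1723 and 2 reads at 3 weeks. A difference between the time points was not detectable at this spread (log2 fold change 0.30 ± 1.51 (SE), adjusted p = 0.899).

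The sequence of Gm26825 is nearly the reverse complement of the RNA of Hspa8, a chaperone gene. Its transcript of 2026 bases, in 2 exons, aligned antisense to Hspa8 on chromosome 9 over 1940 bases at 99.6% identity, with 5 mismatches and 1 gap, and spanned 8 exons of Hspa8. A stretch of 100 bases is shown to make the likeness visible, from chr9:40802009-40802108 (plus strand) for Hspa8 and from chr5:5783370-5783469 for Gm26825 as the reverse complement of the transcript. The capital marks the only base at which the stretches differ.
Hspa8: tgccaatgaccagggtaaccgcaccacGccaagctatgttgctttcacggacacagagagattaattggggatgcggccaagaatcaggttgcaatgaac
Gm26825: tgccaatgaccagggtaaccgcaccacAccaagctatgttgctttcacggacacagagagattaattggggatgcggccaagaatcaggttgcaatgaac

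Gm26825 was 401-fold lower in both samples of number 90 (mean 1.36 RPKM) than in the other 6 samples (mean 546 RPKM). Hspa8 itself measured 198, 220, 306 and 523 RPKM at 1 week and 253, 253, 345 and 408 RPKM at 3 weeks, so that both samples of number 90 were the highest of their time point. It was not called between the time points (0.19 on the log2 scale, adjusted p = 0.697). Most reads of Gm26825 were not unique, and the library kit is not stated to keep the strand. Reads of Gm26825 and Hspa8 therefore cannot be fully told apart, and how this bears on both levels was not tested.

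Gm26809, Gm12840 and Gm48942 completed the 5 lincRNAs of highest level, and none was called. Gm26809 measured 81.5, 84.4, 245 and 327 RPKM at 1 week and 57.1, 82.2, 77.7 and 287 RPKM at 3 weeks. Gm12840 measured 51.8, 50.3, 180 and 231 RPKM and then 34.2, 40.4, 35.7 and 186 RPKM. In these, as in Gm48942, replicate 4 was the highest sample at each time. Their unique reads made up 7.16%, 1.66% and 1.05% of the total. Gm26809 shares stretches of nearly the same sequence with Gm12840 (119 bases), Gm20186 (600 bases) and Gm29408 (216 bases), and Gm12840 shares one of 215 bases with Gm20186, so that reads of these lincRNAs cannot be fully told apart. Gm26917 and Gm42418, at 51.2 and 49.6 RPKM on average, lie at the locus of 45S ribosomal RNA on chromosome 17 and were not called (-0.63, adjusted p = 0.0782, and -0.35, adjusted p = 0.215, on the log2 scale).

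Reads that were not unique bore on many lincRNAs. Unique reads were under 50% of the total for 45 lincRNAs and under 10% for 27, while 98 had at least 90%. A stretch of at least 59 bases, the read length, at 98% identity or more was shared with another gene by 95 of the 162 lincRNAs. This held for 38 of the 45 with under 50% unique reads and for 39 of the 98 with at least 90%. Of the 27 lincRNAs with under 10%, 10 shared a stretch with a gene at the same locus, 10 with a gene elsewhere and 3 with both. For the other 4, no listed gene with such a stretch was found, so that several mapping places were not shown for them.

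On unique reads, 40 lincRNAs were called, 27 higher and 13 lower. Over all tested genes 31.9% were called on unique reads, 14% higher and 17.9% lower. Among the lincRNAs, 39 were called on both kinds of reads, always in the same direction, 9 on total reads only and 1 on unique reads only. A total of 36 were called on total reads, unique reads and RPKM in a single direction, 24 higher and 12 lower. The matching share of all tested genes was not determined. Whether this split is particular to lincRNAs was therefore not tested.

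**Figure D3:**
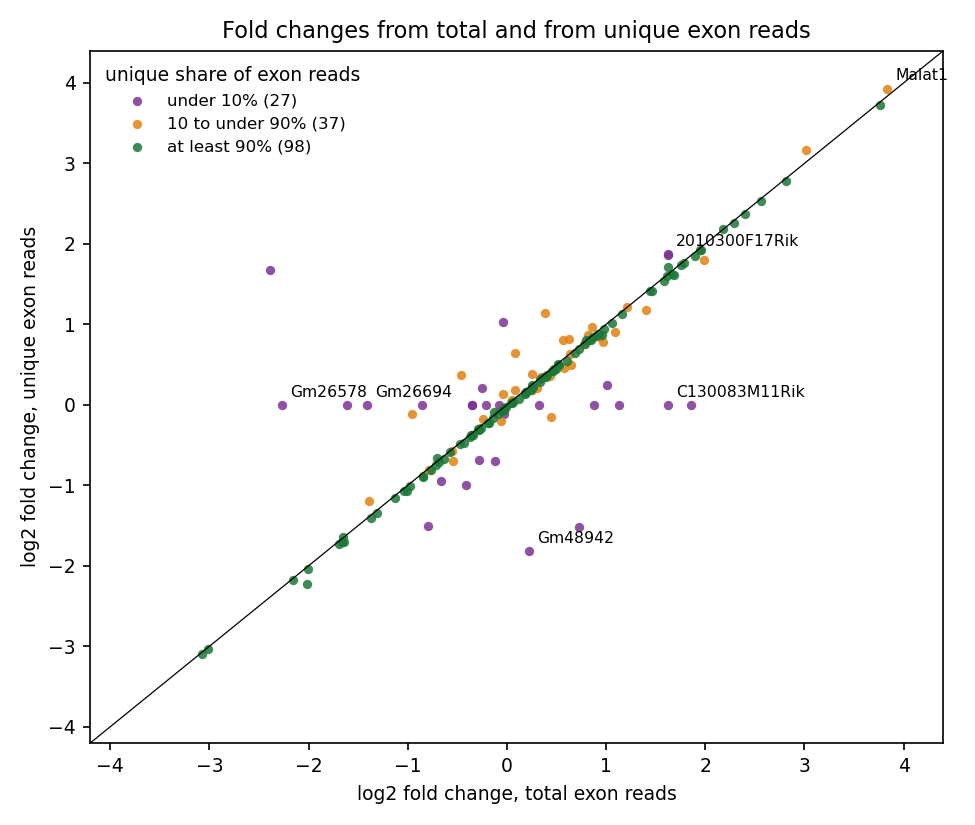
Log2 fold changes of the 162 lincRNAs on total exon reads (x axis) and on unique exon reads (y axis), 3 weeks over 1 week, coloured by the share of unique reads, with the diagonal drawn as a line. lincRNAs without any unique read sit at 0 on the y axis, such as Gm26578 and Gm26694.

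Of the 9 lincRNAs called on total reads only, 4 overlap a coding gene on the opposite strand as their nearest gene. Gm26578 overlaps Nrg1, a ligand of ERBB receptors, and shares 482 bases with its transcripts. It had no unique read and fell by 2.27 on the log2 scale (adjusted p = 0.00454), while Nrg1 fell by 2.20 (adjusted p = 0.00266). Gm26694 shares 712 bases with Metrn, had no unique read and fell by 1.41 on the log2 scale (adjusted p = 0.0105), and Metrn fell by 1.62 (adjusted p = 0.00129). 2010300F17Rik, which was called on unique reads as well, shares 188 bases with Skap1, whose log2 fold change was 1.96 (adjusted p = 0.011). The library kit is not stated to keep the strand, so that reads of such pairs cannot be told apart.

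The pairs did not all move alike. Gm42788 overlaps Hmgb1, a chromatin protein gene, and rose by 1.01 on the log2 scale (adjusted p = 0.017) while Hmgb1 fell by 1.01 (adjusted p = 0.000828). Gm26778 shares 3687 bases with Kctd12, which rose by 1.61 on the log2 scale (adjusted p = 0.00356), and was not called (0.73, adjusted p = 0.477). Gm26735 shares 2616 bases with Sox4, a transcription factor gene (0.49, adjusted p = 0.103), and was not called either (1.86, adjusted p = 0.263). Gm46430 was called on total reads (-0.96, adjusted p = 0.0125) and was near 0 on unique reads (-0.12, adjusted p = 0.786). Gm29408, named after its values were seen, had 1 unique read in all, so that unique reads give no value for it. It measured 9.24, 5.84, 28.7 and 44.9 RPKM at 1 week and 2.73, 3.94, 1.97 and 6.62 RPKM at 3 weeks, and the groups overlapped. It fell on total reads (-2.39, adjusted p = 0.0249), and the call was lost without replicate 3 or 4 of 1 week or replicate 1, 2 or 3 of 3 weeks. The adjusted p then reached 0.07, with a log2 fold change of -1.77, without replicate 4 of 1 week. Gm49083 and C130083M11Rik each had a log2 fold change of 1.62 on total reads (adjusted p = 0.0177 and 0.0244), with 8.92% and 0% of unique reads. The calls of Gm49083, C130083M11Rik and Gm42788 were lost without replicate 1 of 1 week (adjusted p = 0.051, 0.0627 and 0.0537) and each without 1 further sample, which was replicate 4 or 2 of 1 week and replicate 2 of 3 weeks, in the same order.

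Both samples of number 90 stood apart from the other samples in part of the lincRNAs. For number 90, replicate 4 at both times, 24 of the 162 lincRNAs (14.8%) lay outside the RPKM range of the other 6 samples in both samples, 14 above and 10 below. This was so for 8.76% of all tested genes. For number 46 it was 4.32% of lincRNAs beside 0.5% of all tested genes, and for number 49 it was 1.85% beside 1.36%. Numbers 46, 49 and 90 each occur once at each time point, so that these numbers and the time points are not confounded. Number 47 occurs at 1 week only and number 57 at 3 weeks only. Number 57 belongs to replicate 3 of 3 weeks, in which Malat1 reached 242 RPKM. Intronic reads were highest in both samples of number 90, with 2.02 and 2.38% beside 1.48 to 1.76% in the other 6 samples, and their part in these values was not tested.

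Below the other samples in number 90 were Gm26825 (401-fold), Lncenc1 (4.51-fold), Gm5082 (3.50-fold) and Mirt1 (1.70-fold), by the means of RPKM. Above them were Gm35279 (4.00-fold), Gm20186 (3.52-fold), Gm12840 (3.19-fold), Gm48942 (3.04-fold) and Gm26809 (2.93-fold). Over all tested genes, Gm26825 and AI506816 differed at least 10-fold between number 90 and every other sample, a limit chosen after the values were seen. AI506816, a noncoding gene, had 37.4 and 29.2 RPKM in number 90 and at most 1.99 RPKM elsewhere. Gm5152, a coding gene, is listed at 0 RPKM in both samples of number 90, at 1.04, 0.283 and 1.22 RPKM in the other 1 week samples and at 9.93 to 16.7 RPKM in the other 3 weeks samples. These genes all lie on chromosome 5, with starts between 5781530 and 23698296. Without both samples of number 90, 50 lincRNAs were called in place of 48, and 3733 of all tested genes in place of 4111.

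**Figure D4:**
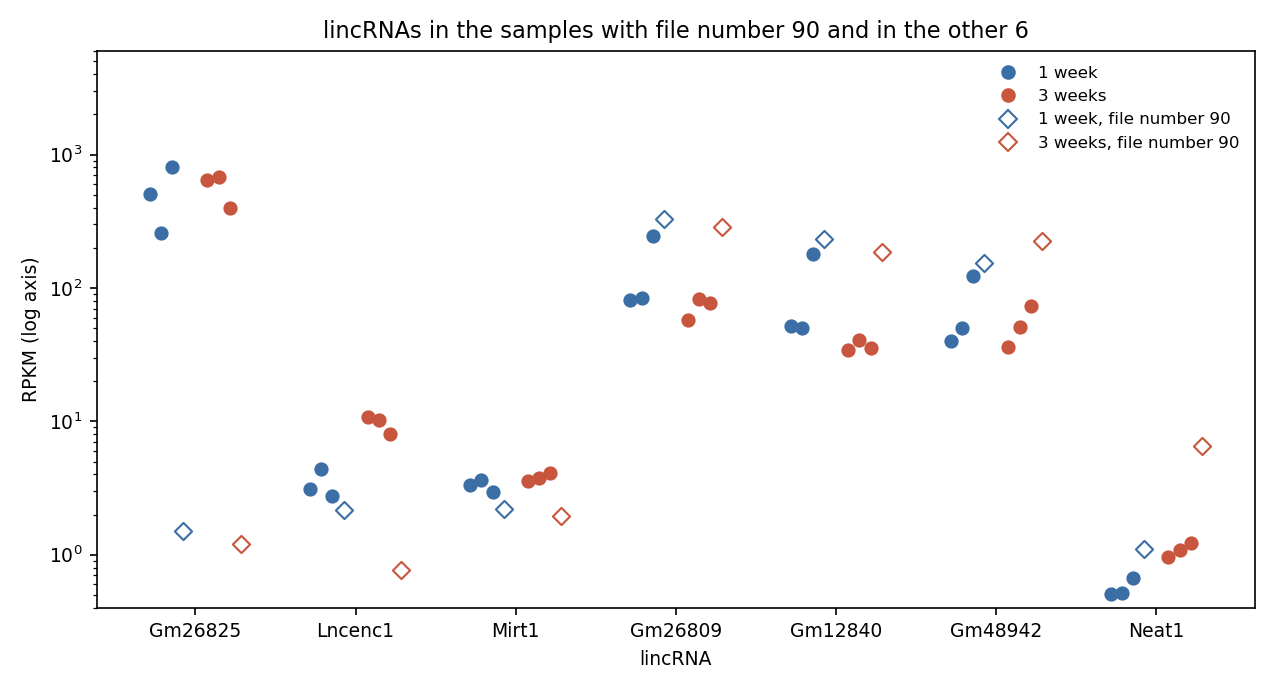
RPKM (log axis) of 7 lincRNAs in every sample, with open diamonds for both samples of number 90 (replicate 4 at each time) and filled circles for the other 6. Gm26825 stands at 1.51 and 1.21 RPKM in number 90 and at 256 RPKM or more elsewhere, Gm26809, Gm12840 and Gm48942 are highest in number 90 at each time, and Neat1 is high in the 3 weeks sample of number 90 only.

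The genomic neighbourhood of the lincRNAs was compared in the same fit. The body of 33 lincRNAs overlapped a protein-coding gene, 53 overlapped some gene on the opposite strand, and those clear of coding genes lay at a median of 21.4 kb from the nearest. Within 5 kb, without overlap, were 43 lincRNAs, of which 12 followed a coding gene on its own strand and 18 preceded a coding gene on the opposite strand. The nearest coding gene was tested for 133 lincRNAs, and 49 of these neighbours were called, beside 33.4% of all tested protein-coding genes. Both genes were called in 19 pairs, 6 higher in both, 5 lower in both and 8 in opposite directions. How many such pairs would arise without a link between neighbours was not tested. Of the 41 called lincRNAs with a tested neighbour, 22 had a neighbour that was not called. Across the 133 pairs, which share libraries and some reads, Pearson's r of the log2 fold changes was 0.115 and Spearman's rho was 0.122. In the 109 pairs without overlap r was 0.00997.

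**Figure D5:**
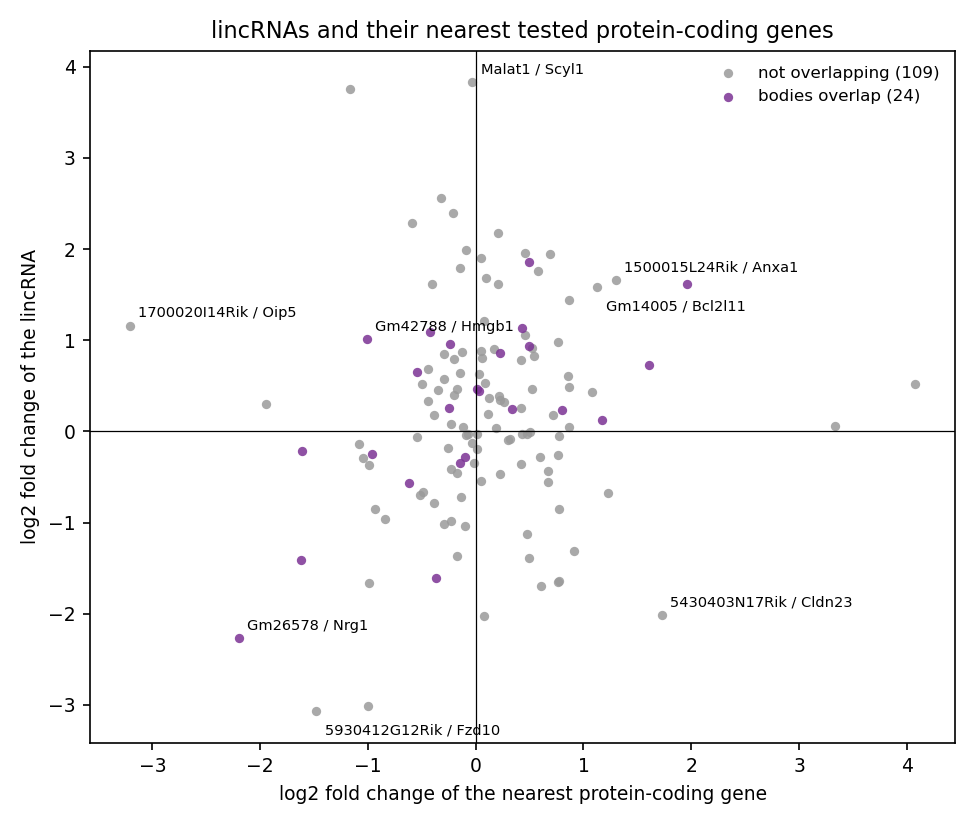
Log2 fold change (3 weeks over 1 week) of 133 lincRNAs on the y axis and of their nearest protein-coding gene on the x axis. Colours separate the 24 pairs whose bodies overlap from the 109 that do not. Points lie in every quadrant, with 1700020I14Rik (Cyrano) at 1.16 and its neighbour Oip5 at -3.21.

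Among called lincRNAs that follow a coding gene on its strand within 5 kb, the lincRNA and the gene often differed. Gm36283 rose by 1.90 on the log2 scale (adjusted p = 0.00451) past Pawr (0.05, adjusted p = 0.892). Gm45495 rose by 1.79 (adjusted p = 0.00787) past Smim20 (-0.15, adjusted p = 0.56), and A530017D24Rik rose by 1.21 (adjusted p = 0.0047) past Akap10 (0.08, adjusted p = 0.638). Neat1 and Frmd8, 4.22 kb apart, were both higher, Frmd8 by 0.69 (adjusted p = 0.00879). These lincRNAs are named after their values were seen.

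A group of 4 lincRNAs, with gaps under 500 kb, lay on chromosome 4, between 88909855 and 89273403, beside the interferon and Cdkn2a genes. Wincr1 fell, as above, and the others were not called. AL805899.1, which holds the precursor of miR-31 on its strand, measured 0.725, 0.804, 1.99 and 2.40 RPKM at 1 week and 2.76, 1.90, 3.02 and 8.45 RPKM at 3 weeks. The highest 1 week samples overlapped the lowest 3 weeks samples (log2 fold change 1.61 ± 0.56 (SE), adjusted p = 0.0539). It passed the threshold with DESeq2 (adjusted p = 0.0152), with the replicate block (1.56, adjusted p = 0.0159) and on gene reads (1.45, adjusted p = 0.0457). Replicate numbers were not taken to pair the samples. In the edgeR fits that omitted a sample each, its log2 fold change lay between 1.01 and 1.96, with adjusted p up to 0.137. Its highest value, 8.45 RPKM, came from the 3 weeks sample of number 90. AL805899.2 had a log2 fold change of -0.03, and Gm12606 one of 0.06 (adjusted p = 0.942), while Cdkn2a, which encodes p16 and p19Arf and lies 1.07 kb from Gm12606, rose by 3.33 on the log2 scale (adjusted p = 0.00128).

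The mature forms of miR-31, a miRNA known from KCs, are printed because AL805899.1 is their host, with the seed (bases 2 to 8) in capitals. They lie on chr4:88910614-88910635 (5p) and chr4:88910577-88910599 (3p), both on the minus strand (RefSeq, GRCm38.p6). The libraries held poly(A) RNA, so that mature miRNAs were not measured.
mmu-miR-31-5p: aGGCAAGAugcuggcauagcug
mmu-miR-31-3p: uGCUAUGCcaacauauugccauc

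Of the other lincRNAs, Snhg20 and Gm4675 hold Mir6516 and Mir6241 on their strand, and Dubr and Gm26694 hold Mir6363 and Mir3082 on the opposite strand. Of these lincRNAs, only Gm26694, on the strand opposite to its miRNA, was called. Among 6 genes of primary miRNA processing and export, 0 were higher and 1 was lower, the exportin gene Xpo5 (-0.92 on the log2 scale, adjusted p = 0.0004), beside 15.9% and 17.2% of all tested genes.

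Genes of the nuclear exosome and its adaptors, which degrade many noncoding transcripts in the nucleus, formed a further list. Of 18 tested, 1 was higher and 10 were lower, beside 15.9% higher and 17.2% lower of all tested genes, with a median log2 fold change of -0.65. These values include Mpp6 (-1.25 on the log2 scale, adjusted p = 0.000738), whose symbol in the mouse names a membrane protein gene and no exosome factor. Mphosph6, which encodes the exosome protein also called MPP6, was not called (0.34, adjusted p = 0.385). Exosc8, a core subunit, fell by 1.79 on the log2 scale (adjusted p = 0.000298), from 9.20 ± 0.251 RPKM (SD, n = 4) to 2.35 RPKM. The nucleases Dis3 (-1.47, adjusted p = 0.00252) and Exosc10 (-0.87, adjusted p = 0.0114) and the helicase Mtrex (-0.67, adjusted p = 0.00786) also fell. Zfc3h1, the zinc finger protein that links poly(A) RNA to the exosome, rose by 1.08 (adjusted p = 0.0495).

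Other long noncoding genes are annotated as antisense to, inside or beside coding genes. Of 199 tested, 24.1% were called, 31 higher and 17 lower, with a median log2 fold change of 0.15. By biotype, 17 of 100 antisense genes were called (9 higher and 8 lower) and 29 of 94 processed transcripts (20 higher and 9 lower). Among 12004 protein-coding genes 33.4% were called.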

How the data were processed

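The authors prepared poly(A) libraries, sequenced single reads and aligned them to GRCm38 in the CLC Genomics Workbench at default settings. The annotation release and the use of strand are not given in the sources used here. The deposited count columns hold whole numbers of reads per gene (total and unique exon reads, gene reads and intron reads). The deposited RPKM columns, written with decimal commas, hold total exon reads after scaling to exon length in kilobases and to sequencing depth. TPM was not used.

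Total exon reads of 12398 genes with at least 100 summed reads were normalized by TMM and tested without pairing by edgeR 4.0.16 (glmQLFit, glmQLFTest) in R 4.3.3; p-values were adjusted by Benjamini-Hochberg, and 0.05 was the threshold. SEs were derived from the F statistics. The procedure was tested on simulated data. Between 13896807 and 20026084 exon reads per sample limit the precision of low genes, and floors cover counting error only. RPKM was tested as log2(RPKM + 0.1) with limma 3.58.1. Transcripts were compared by blastn 2.17.0 with GENCODE M21 sequences, and figures were drawn with matplotlib 3.10.9 under Python 3.11.15.

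The members and lists were chosen with earlier results of these data known. Genes named in the text were lincRNAs with a known role, the 8 largest rises and 8 largest falls among calls without overlap (mean of at least 1 RPKM where enough qualified), the 5 highest mean levels, lincRNAs whose call differed on unique reads, those at the edge of the rule, and genes said to be named after their values were seen. Only the 6 lincRNAs with the smallest adjusted p among those whose call differed on unique reads were named by rule.

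Alternatives were DESeq2 1.42.0, upper-quartile normalization, other filters, unique or gene reads, limma on RPKM, blocks and the omission of each sample. Fits without number 90, or on the 3 numbers found at both times without a block, were added after seeing the data.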

Additional observations from a re-analysis of the deposited data

Results flagged for a closer look

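RPKM values of the lincRNAs named by rule were examined by Dixon's test, and other lincRNAs in the text, such as Gm35279, were not. In 7 of 86 groups of 4 samples the highest sample stood apart (its gap to the nearest sample, divided by the range, was above the 95% critical value). Chance flags about 5% of such groups. Malat1 reached 242 RPKM in replicate 3 of 3 weeks, and the next sample of 3 weeks was at 47.5 RPKM. Bc1 reached 1040 RPKM in replicate 1 of 1 week, beside 569 RPKM in the next sample.

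The other 5 such values came from replicate 4 of 3 weeks, which carries number 90. Neat1 was at 6.57 RPKM there and at most at 1.23 RPKM in the other samples of 3 weeks. Gm26809 was at 287 RPKM beside 82.2 RPKM, and Gm12840, which shares sequence with it, was at 186 RPKM beside 40.4 RPKM. Gm29904, which fell in the comparison of time points, was at 1.20 RPKM beside 0.195 RPKM, and C130083M11Rik was at 1.51 RPKM beside 0.596 RPKM. Their relation to the number 90 was not tested further.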

How the results depend on the processing

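With 48 lincRNAs called (31 higher and 17 lower), DESeq2 called 59, upper-quartile normalization 47, filterByExpr 49, no filter 44, gene reads 52 and unique reads 40. The main fit called 4111 genes in all. These settings called 4876, 3975, 4127, 3988, 4187 and 3955 genes in all, in the same order. Requiring at least 10 reads in every sample kept 102 of the 162 lincRNAs and called 29 (19 higher and 10 lower), beside 3682 genes in all. limma on log2(RPKM + 0.1) called 53, of which 26 were lower, and on log2(RPKM + 1) it called 52, beside 4381 and 4329 genes in all. Without each sample in turn, 35 to 57 lincRNAs were called, 23 to 36 of them higher and 11 to 21 lower, with 11 lower without replicate 1 or replicate 2 of 3 weeks, and between 2963 and 4788 of all tested genes. The median log2 fold change of 0.23 was 0 on both RPKM scales and lay between 0.14 and 0.28 without each sample. Low depth limits most members, since 131 of 162 had under 1000 summed reads.

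Deviations of samples with the same replicate number correlated at -0.222, -0.135, -0.135 and 0.243, so that the numbers were not taken to pair the samples, and not every sample correlated best with its own number. By the file number the correlations were -0.222 (46), 0.211 (49) and 0.243 (90), and the labels do not tie file numbers to the shared batches of the study. With the replicate block, 43 lincRNAs and 2844 of all tested genes were called in place of 48 and 4111. With the file number as the block in the 3 numbers found at both times, 36 lincRNAs were called, 20 of them higher. Their median log2 fold change over all 162 was 0.12, and 44 were called without the block. Over all tested genes, 3031 were called with the block and 3818 without it.

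Of 31 named lincRNAs that were called, 637 values under alternatives held the direction, 584 with the call and 53 without it. Those not called changed sign in 18 values. Trp53cor1 (0.05) was -0.01 without a filter, -0.46 without number 90 and -0.32 to 0.72 without each sample. Bc1 (0.43) was -0.36 with the file-number block, -0.41 without that block and -0.33 to 0.69 without each sample. Gm48942 (0.22) was -1.82 on unique reads, -0.08 and -0.07 on the RPKM scales, -0.20 with the file-number block, -0.23 without number 90 and -0.56 to 0.60 without each sample. Gm26825 lay between -0.11 and 0.91 and Gm26809 between -1.15 and 0.03 without each sample. The cause was not tested.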
